A study of Homo sapiens with 16 samples.

Results

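JUN, JUNB, JUND, FOS, FOSB, FOSL1, FOSL2, ATF3, EGR1 and IER2 are genes of the AP-1 transcription factor and of the immediate early response, and the 10 were chosen by their symbols in the deposited gene tables. Of these, 8 were among the 7433 genes listed for the complemented cells and 9 were among the 8657 genes listed for the lentiCTRL cells. FOSB was listed for neither, and ATF3 was listed for the lentiCTRL cells alone. JUND was named in that choice for its structured, GC-rich 5′ leader, so the composition of its leader is a description here.

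AP-1 is a dimer of basic leucine zipper (bZIP) proteins. JUN proteins pair with each other or with FOS and ATF proteins, whereas FOS proteins bind DNA with a JUN partner. The dimers bind the TRE, a short palindrome named for its response to phorbol ester, or the closely related CRE, which also binds CREB and ATF proteins. Immediate early genes are transcribed within minutes of a growth factor or stress signal without new protein synthesis, and their mRNAs are typically short-lived. In epithelial tumour cells, RAS and MAP kinase signalling is a known route to AP-1 activity. DDX3X and its paralog DDX3Y are DEAD-box RNA helicases that act in translation initiation, and structured 5′ leaders are known to be sensitive to such helicases.

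The study asked how DDX3X and DDX3Y differ in their effect on translation, using HCT 116, a human colorectal cancer cell line. Ribosome profiling, which sequences the RNA fragments protected by ribosomes, was set against rRNA-depleted RNA-seq in 4 conditions with 2 replicates each, giving 16 libraries. In all conditions the cells carried OsTIR1, driven by a CMV promoter, and a mini-AID degron tag on endogenous DDX3X, which lets indole-3-acetic acid (IAA) trigger loss of the tagged protein. The degron cells were grown from picked colonies, so clonal traits are shared by all groups.

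The first library set came from cells complemented with lentiDDX3X or with lentiDDX3Y, all given 500 µM IAA for 48 h. These lines express FLAG-tagged, partially codon-optimised DDX3 open reading frames and were sorted for the mCherry2 encoded with them. The second set came from the lentiCTRL line, given DMSO or 500 µM IAA for 48 h. For each set, the deposited table holds 1 base mean per gene and assay, the authors' mean of normalised counts over the libraries of the table (4 RNA-seq and 4 ribosome profiling libraries). The libraries behind a base mean are taken here to be those of the table, which the sources do not spell out. No value per library was used, so the spread between replicates is unknown, no difference below was tested, and IAA against DMSO and DDX3Y against DDX3X were not analysed here. Complementation, the kind of DDX3 paralog, IAA and the library set itself cannot be told apart in a difference between the sets.

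Short stretches of the promoters and of the counted coding sequences of these genes are given. The promoter stretches are from RefSeq (GRCh38.p14), where 9 of the 10 genes had an entry spanning 250 bases before to 50 bases after a start site. Motifs were searched on both strands, as exact letters apart from the CArG box, whose inner letters may vary between A and T, and the capitals mark the match. A match describes these letters only.

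JUN, on chromosome 1, minus strand, chr1:58784096-58784125, with the AP-1 variant TGACATCA at -67: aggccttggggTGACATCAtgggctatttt
ATF3, on chromosome 1, plus strand, chr1:212565273-212565302, with the same variant at -123: cacctatgataTGACATCAtatggccactc
JUND, on chromosome 19, minus strand, chr19:18281804-18281833, with the CRE at -200: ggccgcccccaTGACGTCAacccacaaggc
EGR1, on chromosome 5, plus strand, chr5:138465364-138465393, with a CArG box at -105: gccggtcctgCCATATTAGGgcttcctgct
EGR1, on chromosome 5, plus strand, chr5:138465386-138465415, with a CArG box at -83: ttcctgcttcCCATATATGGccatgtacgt

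The variant TGACATCA, known in the JUN promoter as a site of JUN and ATF2 dimers, was present in 2.61% of 35116 RefSeq promoters of this length. The CRE, TGACGTCA, was present in 1.85% and, among these genes, matched in JUND alone. The CArG box, the site of serum response factor, was present in 1.29% of promoters and matched in EGR1 alone, 2 times. Letters farther than 250 bases before or 50 bases after a start site were not searched, so a gene without a match may have the motif there. The GC box GGGCGG, present in 45.0% of promoters, matched 6 times in JUND, and none of its matches overlaps the letters of the CRE. TATAAA, present in 11.5%, matched in FOS, FOSB, JUNB and 1 of the 2 ATF3 promoters. The TRE, TGACTCA, was present in 4.95% of promoters and matched in FOSL2 alone.

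Footprints were counted by the authors over coding sequences, and the first 30 coding bases of the JUN family in GRCh38 are given with the start codon in capitals, since this family held both the lowest and the highest footprints per RNA.

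JUN, chromosome 1: ATGactgcaaagatggaaacgaccttctat
JUNB, chromosome 19: ATGtgcactaaaatggaacagcccttctac
JUND, chromosome 19: ATGgaaacacccttctacggcgatgaggcg

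None of the 28-nt windows in the coding sequence of any of the 9 listed genes occurred in that of another of them, 0 of 1014 for JUND and 0 of 966 for JUN, so a footprint of that length does not match 2 members. In GENCODE v44 (GRCh38), JUNB lies inside the span of HOOK2 on the opposite strand, and FOSL2 and IER2 overlap lncRNAs. The RNA-seq libraries were stranded per the labels, but whether the counting used strand is not given in the sources used here, so reads of JUNB, FOSL2 and IER2 could include those of the overlapping genes.

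The cells had the markers of their label. Of 14 markers of colorectal epithelium, 10 were listed in both tables, among them EPCAM, KRT8 and CDH1. Of 12 markers of other cell types, 0 were listed for the complemented lines, and COL1A1 was the 1 listed for the lentiCTRL line. DDX3X was listed in both tables and DDX3Y for the complemented lines only, of which the lentiDDX3Y line had received it. The median gene had an RNA base mean of 1084 and a ribo base mean of 52.7 in the complemented lines, and 868 and 34.1 in the lentiCTRL line, so footprints limit the precision. The smallest ribo base mean listed was 20.0 in the complemented lines and 10.0 in the lentiCTRL line. The depth of single libraries is not analysed here. In bulk RNA, fewer expressing cells and less RNA per cell cannot be told apart.

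JUND had the highest RNA level of these genes per coding kb, and FOS the lowest. Per kb of coding sequence, 7 of 8 listed genes lay above the median gene in RNA in the complemented lines and 8 of 9 did so in the lentiCTRL line. The same counts held for footprints, and FOS was the exception in each case. Levels per kb are the authors' base means divided by the coding length of the canonical GENCODE transcript, and the median gene was at 727 for RNA and 38.6 for footprints in the complemented lines, against 600 and 24.5 in the lentiCTRL line.

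**Figure D1:**
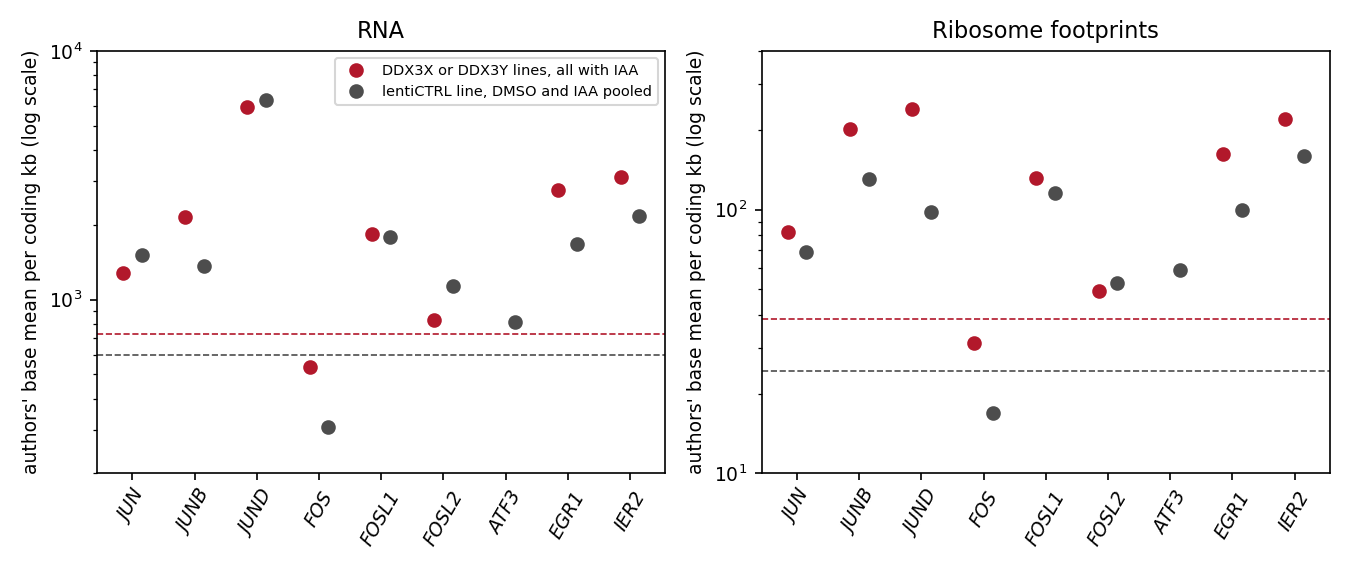
RNA (left) and ribosome footprint (right) levels of the AP-1 and immediate early genes, as the authors' base mean per coding kb on a log axis. Each point is 1 pooled mean per library set, with no error bar because no value per library was used, and the dashed lines are the median gene of each set. JUND has the highest RNA level of these genes in both sets, at 5957 in the complemented lines and 6351 in the lentiCTRL line, and FOS is below the median gene.

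Among the JUN genes, JUND (ENSG00000130522), the JUN protein often linked to slower growth, is encoded by 1 exon at chr19:18279694-18281622 on the minus strand. Its RNA base mean was 6201 in the complemented lines and 6611 in the lentiCTRL line. Per coding kb this was 5957 and 6351, at the 96.1 and 97.2 percentile of the genes listed. Its ribo base mean was 251 in the complemented lines against 102 in the lentiCTRL line. JUND therefore had 4.05 footprints per 100 units of RNA in the complemented lines and 1.54 in the lentiCTRL line, whereas the median gene had 5.56 and 4.57.

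JUN (ENSG00000177606), the founding AP-1 subunit and the target of JUN N-terminal kinase, is also encoded by 1 exon, at chr1:58776845-58784048 on the minus strand. It had an RNA base mean of 1265 in the complemented lines and 1501 in the lentiCTRL line, with ribo base means of 81.4 and 68.8. JUNB (ENSG00000171223), which often opposes JUN, is encoded by 1 exon at chr19:12791486-12793315 on the plus strand. Its RNA base mean was 2230 in the complemented lines and 1419 in the lentiCTRL line. Its ribo base mean was 211 in the complemented lines and 136 in the lentiCTRL line, and in the lentiCTRL line JUNB had more footprints per coding kb than JUND, 130 against 97.9, from less RNA per coding kb, 1364 against 6351.

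Of the FOS genes, FOS and FOSL2 were at lower RNA levels per kb than the JUN genes. FOS (ENSG00000170345, chr14:75278826-75282230), the prototype of a rapidly induced and rapidly degraded transcript, had RNA base means of 610 in the complemented lines and 352 in the lentiCTRL line. Its ribo base means were 35.6 and 19.3, which places it at the 34.7 and 21.4 percentile of RNA per kb. FOSL1 (ENSG00000175592, chr11:65892049-65900573), which encodes FRA1, an AP-1 subunit common in invasive carcinoma cells, had the highest RNA level per coding kb of the FOS family, 1827 in the complemented lines and 1784 in the lentiCTRL line. Its RNA base mean was 1486 in the complemented lines and 1450 in the lentiCTRL line, with ribo base means of 107 and 94.0. FOSL2 (ENSG00000075426, chr2:28392448-28417317), which encodes FRA2, had RNA base means of 806 and 1113 and ribo base means of 48.1 and 51.8 in the complemented and lentiCTRL lines.

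The other genes are stress and growth factor responders. EGR1 (ENSG00000120738, chr5:138465479-138469303), a zinc finger factor induced through serum response factor, had RNA base means of 4479 in the complemented lines and 2716 in the lentiCTRL line. Its ribo base means were 265 and 163, which per coding kb is 163 in the complemented lines and 100.1 in the lentiCTRL line. IER2 (ENSG00000160888, chr19:13150411-13154911), a small nuclear immediate early protein, had RNA base means of 2081 and 1448, with ribo base means of 148 and 107. ATF3 (ENSG00000162772, chr1:212565334-212620777), a stress-induced bZIP factor that can repress its targets, had an RNA base mean of 441 and a ribo base mean of 32.0 in the lentiCTRL line.

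Translation efficiency (TE), taken here as the log2 ratio of ribo to RNA base mean relative to the median gene of the same table, separated JUND from all the others. JUND was the 1 member below the median gene, at -0.46 in the complemented lines and -1.57 in the lentiCTRL line. These values are at the 30.4 and 9.56 percentile of the genes listed. How many members lay below depended on the centring: relative to the median of genes with base means above 100, 5 of 8 members were below in the complemented lines and 6 of 9 in the lentiCTRL line, with JUND the lowest in both. The 95% interval from counting alone was -0.55 to -0.37 in the complemented lines and -1.71 to -1.43 in the lentiCTRL line. Such intervals assume size factors near 1 and do not cover the spread between replicates.

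JUNB was at the other end, with a TE of 0.76 in the complemented lines and 1.06 in the lentiCTRL line, at the 85.9 and 89.4 percentile. The JUN family thus held the lowest and the highest TE of these genes in both library sets. From JUND to JUNB the TE spanned 2.33-fold in the complemented lines and 6.19-fold in the lentiCTRL line. JUN was close to the median gene, at 0.21 and 0.00.

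In the complemented lines the order from low to high was JUND, FOS, EGR1, FOSL2, JUN, IER2, FOSL1 and JUNB. In the lentiCTRL line it was JUND, JUN, FOSL2, FOS, EGR1, FOSL1, ATF3, IER2 and JUNB. The steps from JUND to its neighbour, 0.53 and 1.57, and from JUNB to its neighbour, 0.40 and 0.37, exceeded counting error in the complemented and lentiCTRL lines. The neighbours between them, from FOS to FOSL1 in the complemented lines and from JUN to IER2 in the lentiCTRL line, did not differ beyond counting error. The median over the listed members was 0.16 in the complemented lines and 0.39 in the lentiCTRL line, while the middle 50% of all genes ran from -0.61 to 0.50 and from -0.76 to 0.60.

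**Figure D2:**
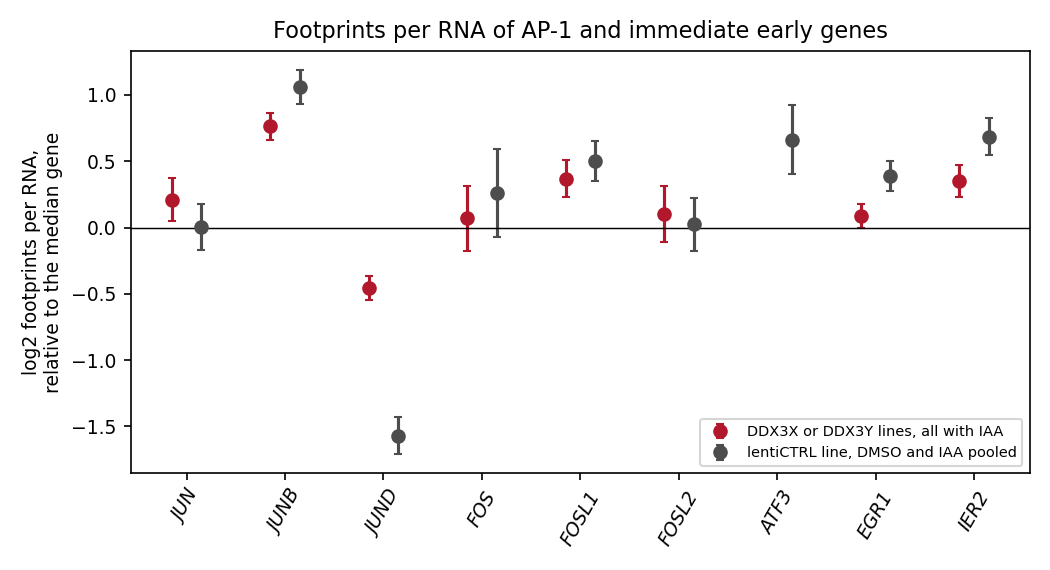
TE of the AP-1 and immediate early genes, as log2 footprints per RNA relative to the median gene of the same table (the line at 0), in each library set. Points are from the authors' pooled base means and bars are 95% intervals from counting alone. JUND is the only gene below the line in both sets, at -0.46 in the complemented lines and -1.57 in the lentiCTRL line.

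Between the library sets, JUND had more footprints and slightly less RNA, whereas FOS and EGR1 had more RNA and FOSL2 less in the complemented lines. Differences are given as complemented minus lentiCTRL, because the tables were normalised separately, after removing the median difference over the 7386 genes listed in both. This median was taken separately for RNA, footprints and TE, so a TE difference is not exactly the footprint difference minus the RNA difference. The TE values above were centred within each table on all its genes, so their differences also deviate slightly from those given here. The median removed was 0.12 for RNA, 0.37 for footprints and 0.22 for TE, on the log2 scale. A gene is counted as higher or lower past 1.5-fold. The smallest ribo base means listed were 20.0 in the complemented lines and 10.0 in the lentiCTRL line. Genes near 10.0 in the lentiCTRL line were thus listed in both only if higher in the complemented lines. This selection can raise the share of genes called higher, and reduce the share called lower, in footprints and TE.

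For RNA, 2 of 8 members were higher, FOS and EGR1, where 2.09% of all genes were. FOSL2 was the 1 member lower, where 1.9% of all genes were. FOS differed by 0.67 on the log2 scale (1.60-fold, counting interval 0.58 to 0.77) and EGR1 by 0.60 (1.52-fold, 0.57 to 0.64), which is close to the limit and was 0.55 among genes with base means above 100. FOSL2 differed by -0.59 (0.666-fold, -0.65 to -0.52), at the limit itself, and was no longer past it at -0.55 with base means divided by the sum of shared genes or at -0.47 with no centring. JUNB at 0.53 and IER2 at 0.40 were also above 0, JUN was at -0.37, JUND at -0.21 and FOSL1 at -0.09. The median over the 8 members was 0.16, and the middle 50% of all genes ran from -0.17 to 0.16.

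For footprints, JUND was the 1 member of 8 higher, where 5.46% of all genes were, and 0 were lower, where 2.23% were. ATF3, with a ribo base mean of 32.0 in the lentiCTRL line, was not listed for the complemented lines and is outside these counts. A member below the smallest ribo base mean listed there, 20.0, could not be counted as lower. Whether that is why ATF3 is missing was not tested. JUND differed by 0.94 (1.91-fold, counting interval 0.77 to 1.10). FOS was at 0.52 (0.12 to 0.92), EGR1 at 0.33 and JUNB at 0.27, each with less of a difference in footprints than in RNA. For FOS, the RNA difference of 0.67 lay inside the footprint interval. With no centring its order turned, at 0.89 in footprints and 0.79 in RNA. FOSL2 was at -0.47, FOSL1 at -0.18, JUN at -0.12 and IER2 at 0.11. The member median was 0.19, against 0 for all genes.

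**Figure D3:**
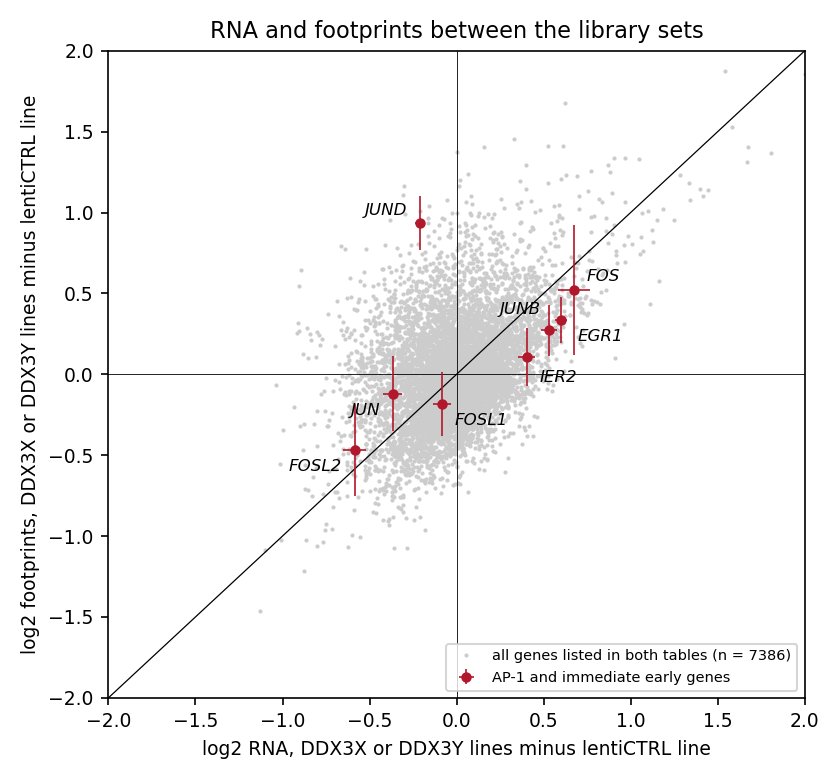
Difference in RNA (horizontal) and in footprints (vertical) on the log2 scale, complemented lines minus lentiCTRL line, each centred on the median gene. Grey points are the 7386 genes listed in both tables, of which 4 lie outside the axes at 2; red points are the AP-1 and immediate early genes with 95% counting intervals, and the diagonal marks equal differences. JUND sits far above the diagonal, at -0.21 for RNA and 0.94 for footprints.

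For TE, JUND was again the 1 member of 8 higher, where 7.55% of all genes were, and 0 were lower, where 0.718% were. ATF3 is again outside these counts. Its TE differed by 1.18 (2.26-fold, counting interval 1.01 to 1.34). By size, JUND ranked 23 of 7386 genes, and 1 of the 1289 genes whose RNA and ribo base means exceeded 100 in both tables. JUND passed that limit narrowly, with a ribo base mean of 102 in the lentiCTRL line. The limit also leaves out genes with fewer footprints there, so the rank of 1 depends on where it is set. JUN at 0.27 and FOSL2 at 0.14 were the other members above 0. IER2 at -0.27, EGR1 at -0.24, JUNB at -0.23, FOS at -0.12 and FOSL1 at -0.07 were below, and the member median was -0.10. For EGR1, JUNB and IER2, with counting intervals of -0.38 to -0.09, -0.40 to -0.07 and -0.45 to -0.08, RNA was above 0 and TE below it. The signs are not independent, because the RNA difference is subtracted in the TE difference. The TE differences of EGR1, JUNB and IER2 were smaller than counting error at -0.02, -0.02 and -0.05 with no centring. The same held at -0.12, -0.11 and -0.15, centred on genes with base means above 100. Across all 7386 genes, the TE of the sets was closely ordered (Spearman's rho 0.952, across genes, which are not replicates).

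The genes with TE values nearest to those of JUND over the 2 library sets, among 3000 whose ribo base means were 50 or more in both tables, were RUNX1, CHPF and TJP1. RUNX1, a transcription factor, had a TE of -0.60 in the complemented lines and -1.60 in the lentiCTRL line, a Euclidean distance of 0.15 from JUND. CHPF, a chondroitin polymerising factor, had -0.75 and -1.56 (distance 0.30). TJP1, the tight junction protein ZO-1, had -0.63 and -1.34 (distance 0.32). With 2 points per gene, this likeness is a description only.

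The leader of JUND stood apart from those of the other members. On the canonical transcript in GENCODE v44 it is 138 nt long with a GC content of 89.9%, and 23 of 8533 leaders with a value were at least as GC-rich, itself included. Its predicted folding energy, from RNAfold, was -0.67 kcal/mol per nt, and 30 of these leaders were at or below it. The other members had leaders of 63.9% (IER2) to 77.0% (EGR1) GC. The median over the 9 listed members was 73.5% GC, against 68.5% for all genes, but with leaders averaged over transcripts it was 65.2% against 64.7%.

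Leader length did not follow the same order. JUN has a leader of 977 nt and FOSL2 one of 863 nt, at the 99.3 and 98.9 percentile of genes by length, whereas FOSL1 has 49 nt. JUNB, the member with the highest TE, has a leader of 286 nt with 74.5% GC and a folding energy of -0.47 kcal/mol per nt. Over all genes, TE tended to be lower at lower folding energy per nt (Spearman's rho 0.34 in the complemented lines and 0.44 in the lentiCTRL line). Leader length was more closely related to TE (rho -0.43 and -0.47), and leader GC content less closely (rho -0.11 and -0.19). How leader features bear on the TE of single members was not tested. EGR1 has 1 upstream AUG and IER2 has 2, and the other members have 0.

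The coding sequences were short and GC-rich, with a median of 993 nt and 63.7% GC over the members, against 1419 nt and 52.5% for all genes. JUND was again the highest in GC, at 73.4%. JUN, JUNB and JUND are encoded by 1 exon each, 3 of 9 members, whereas 1.76% of all genes with a value are.

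Over all genes, the TE difference tended to be larger at higher leader GC content (Spearman's rho 0.37, Pearson's r 0.36, n = 7239 genes, which share the same libraries). The median was -0.11 among 352 genes with under 50% GC, -0.12 among 1169 genes with 50 to 60%, -0.06 among 2441 genes with 60 to 70%, 0.09 among 2498 genes with 70 to 80%, 0.30 among 589 genes with 80 to 85%, and 0.28 among 190 genes with 85% or more. In that last bin, 4 genes, JUND among them, had a difference at least as large as that of JUND. There were 9 such genes in the bin of 80 to 85%, 7 in that of 70 to 80% and 3 in that of 60 to 70%. Each of the lower bins had 0. JUNB and EGR1, in the bin of 70 to 80% GC, were at -0.23 and -0.24, below its lower quartile of -0.10. Over all genes, predicted folding energy per nt was more closely related to the TE difference than GC content was (Spearman's rho -0.50, Pearson's r -0.48, n = 7239). Leader length was related to it as well (rho 0.35, r 0.27, n = 7328). Base composition can also affect library preparation, and its part in these values was not tested.

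**Figure D4:**
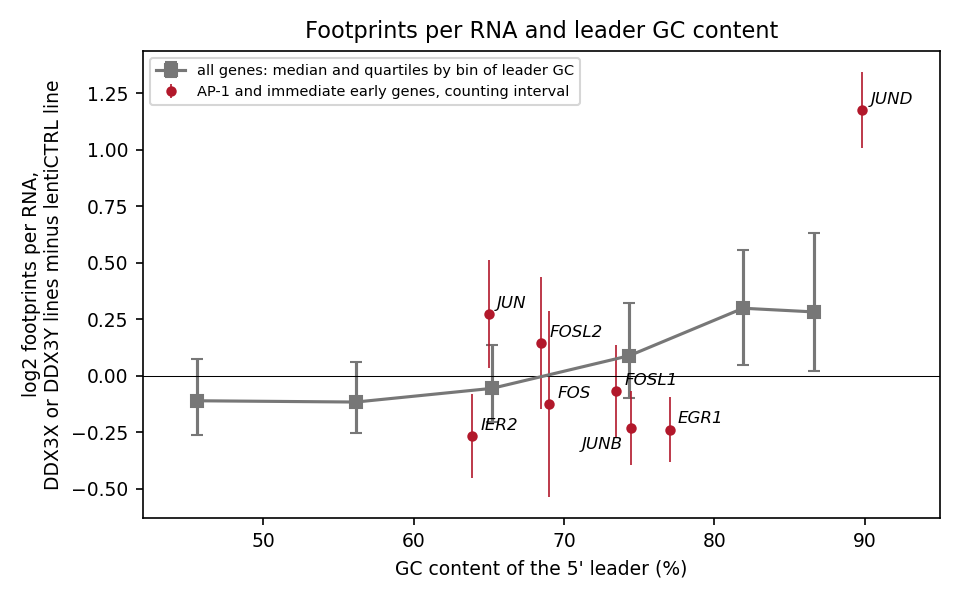
TE difference, complemented lines minus lentiCTRL line on the log2 scale, against the GC content of the 5′ leader in percent. Grey squares are the median of all genes in a bin of leader GC with bars for the quartiles, placed at the bin's median GC; red points are the AP-1 and immediate early genes with 95% counting intervals. The bin medians are -0.11 for leaders under 50% GC and 0.28 for those of 85% or more, where JUND lies above the median at 1.18, while JUNB and EGR1 lie below the bin next to them.

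Genes around AP-1 were given the same treatment. Past 1.5-fold in TE were 0 of 17 other bZIP genes and 0 of 21 other immediate early genes listed in both tables. Of 21 signalling genes, 5 were higher and 0 lower. Of all genes, 7.55% were higher and 0.718% lower, and in lists this small a count of 0 is close to these shares. Of 30 other bZIP genes, such as CREB, ATF, MAF and NFE2L partners or relatives, 17 were listed for the complemented lines and 20 for the lentiCTRL line. Among the 17 in both tables, 0 were higher in RNA, where 2.09% of all genes were. NFIL3, picked after its values were seen, was the 1 lower at -0.62, where 1.9% of all genes were. In footprints or TE, 0 were past 1.5-fold in either direction. Of all genes, 5.46% were higher and 2.23% lower in footprints, and 7.55% and 0.718% in TE. NFE2L2, the oxidative stress regulator NRF2, had the lowest TE of those whose ribo base means were 50 or more, at -0.92 in the complemented lines and -1.22 in the lentiCTRL line, followed by NFE2L1 at -0.79 and -1.07. Their TE differences were 0.36 and 0.34. ATF6B, an endoplasmic reticulum stress sensor, had 0.33 in the complemented lines and 0.74 in the lentiCTRL line, and CEBPB, a bZIP factor of inflammation and differentiation, had 0.61 and 0.54.

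Of 31 other immediate early genes, 21 were listed in both tables. In RNA, 2 were higher, KLF2 at 1.34 and SGK1 at 1.25, and 2 lower, DUSP5 at -1.01 and MYC at -0.68, where 2.09% and 1.9% of all genes were. In footprints, KLF2 at 1.08 and SGK1 at 0.96 were higher and BTG2 at -0.79 and MYC at -0.73 lower, where 5.46% and 2.23% of all genes were. In TE, 0 were past 1.5-fold either way, where 7.55% of all genes were higher and 0.718% lower. KLF2, SGK1, MYC and BTG2 were named after their values were seen. DUSP5, a MAP kinase phosphatase, had the lowest TE of those with enough footprints, at -0.92 in the complemented lines and -1.34 in the lentiCTRL line, and ZFP36, which destabilises immediate early mRNAs, was next at -0.27 and 0.03. IER3 had the highest, at 1.05 and 1.37, and IER5 was next at 0.68 and 1.04. The list's median TE difference was -0.11, near the -0.10 of the members.

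Of 26 genes in signalling to AP-1, 21 were listed in both tables, and 5 were higher in TE and 0 lower, where 7.55% and 0.718% of all genes were, with list medians of -0.11 in RNA, 0.22 in footprints and 0.41 in TE. As with JUND, most were below the median gene in TE, 16 of the 21 listed for the complemented lines and 17 of the 22 listed for the lentiCTRL line. The 5, named after their values were seen, were MAP2K4 at 0.80, an activator of JUN N-terminal kinase, ELK3 at 0.72 and ELK4 at 0.66, partners of serum response factor, MAPK9 at 0.66, which is JUN N-terminal kinase 2, and RPS6KA3 at 0.65, a ribosomal S6 kinase. In RNA 0 were past 1.5-fold, where 2.09% of all genes were higher and 1.9% lower. In footprints ELK3 was the 1 higher, at 0.68, where 5.46% of all genes were, and 0 were lower, where 2.23% were. MAP2K2 had a TE of -1.24 in the complemented lines and -1.58 in the lentiCTRL line, and NAB2, a corepressor of EGR1, had -0.06 and 0.09. Of the 5 higher in TE, MAPK9 and MAP2K4 had ribo base means of 13.8 and 15.5 in the lentiCTRL line. In the complemented lines these were 23.4 and 27.3, near the smallest listed there. Genes this low are listed in both mainly when higher in the complemented lines. The count of 5 and the list's median TE difference may be raised by this selection. These lists are described by counts and medians only and were not tested.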

How the data were processed

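RNA-seq and ribosome profiling libraries were made by the authors from 4 conditions with 2 replicates each. Per the study's methods, the authors removed adapters, merged reads that shared a UMI, dropped reads matching structural and small RNAs (rRNA, tRNA, snoRNA, miRNA), and aligned what remained to hg38. Coding-sequence reads longer than 24 nt were then counted with Ribo-seQC. STAR 2.6.0a, Bowtie2 and cutadapt are named in the submitters' processing notes, and the annotation release they used is not given there. The 2 deposited tables hold base means, which are the authors' means of normalised counts (a unit other than raw counts). Also deposited are the authors' log2 fold changes, adjusted p-values and classes, in 1 table for IAA over DMSO and in the other for the 2 DDX3 paralogs, and none of these were used. No count test was run, since these tables give no count per library.

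From the base means, levels per coding kb, log2 ribo over RNA centred on the median gene, and differences centred on the genes listed in both tables were computed. Counting intervals (95%) take a base mean as the mean of 4 libraries with size factors near 1. The difference script was tested on simulated data. Leaders and coding sequences are those of canonical transcripts in GENCODE v44 on GRCh38, found for 8635 of 8704 genes. Leaders of at least 10 nt were folded with RNAfold 2.7.2. Python 3.11.15, numpy 2.4.6, pandas 2.3.3, scipy 1.17.1 and matplotlib 3.10.9 were used.

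Named genes are all members, the 2 lowest and 2 highest in TE in the lentiCTRL line of each related list among genes whose ribo base means were 50 or more, and the 3 nearest to JUND. Others are said to be chosen after their values were seen. A gene that this rule would also name is not reported here. Members and lists were chosen with earlier results of these data known. Alternatives were other scalings, a pseudocount of 5, a limit of 2-fold, base means above 100, the longest coding sequence and leaders averaged over transcripts.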

Additional observations from a re-analysis of the deposited data

How the results depend on the processing

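JUND kept its place under every scaling and base mean limit tried: its TE difference ran from 1.16 to 1.39, its footprint difference from 0.94 to 1.30 and its RNA difference from -0.26 to -0.09. With no centring, the member medians were 0.28 for RNA, 0.55 for footprints and 0.12 for TE, and 4 members were past 1.5-fold in footprints. With base means above 100 only, which left 4 members, the medians were 0.42 for RNA and 0.38 for footprints, the median leader GC content was 75.8%, and 0 members were past the limit in RNA. A limit of 2-fold left 0 members in RNA and 0 in footprints. FOSL2 was no longer past the RNA limit at -0.55, when base means were divided by the sum of shared genes, or at -0.47, with no centring. Centred on genes with base means above 100, the median TE of the members was -0.16 in the complemented lines and -0.15 in the lentiCTRL line, with 5 of 8 and 6 of 9 members below 0, and with division by the sum of each table it was 0.43 and 0.63. The longest coding sequence gave a median RNA level of 1417 per kb in the lentiCTRL line, and leaders averaged over transcripts gave a median GC content of 65.2%, against 64.7% for all genes. The signs of FOSL1 in all 3 differences, of JUN in footprints and of FOS in TE turned with the scaling. A pseudocount of 5 put EGR1 below the median gene in the complemented lines, at -0.02, and JUN and FOSL2 in the lentiCTRL line, at -0.12 and -0.07. JUND had the lowest and JUNB the highest TE of the members under all 3 of these alternatives, and the TE of JUND ran from -0.78 to -0.19 in the complemented lines and from -2.11 to -1.33 in the lentiCTRL line. Of 111 values of single members under an alternative, 61 moved by more than counting error and 0 of those past the limit reversed.

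No paired analysis was possible because each table used here gives 1 pooled base mean per gene and assay, and no replicate was left out for the same reason. Precision is limited by footprints, most of all for FOS, with ribo base means of 35.6 in the complemented lines and 19.3 in the lentiCTRL line.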
